A study of Homo sapiens with 8 samples.

Results

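The genes described here are 32 downstream targets of the tumour suppressor p53, taken as a named list and found as 32 of the 58721 gene identifiers in each count file. Messenger RNA was sequenced from the human neuroblastoma cell lines NGP and CHLA-20 after 6 days with a PRMT5 inhibitor or with its vehicle DMSO. Sample names call the inhibitor JSK591, the protocol calls it GSK591 at its IC50 with no concentration, and the labels do not say whether these are the same compound. PRMT5 methylates arginines of histones, splicing factors and other proteins. The groups were NGP JSK591, NGP DMSO, CHLA-20 JSK591 and CHLA-20 DMSO, with 2 libraries in each. NGP grew in RPMI1640 and CHLA-20 in IMEM with insulin, transferrin and selenite, so line and medium cannot be told apart. The labels do not say that a group's libraries are separate cultures, and the p-values therefore reflect only the spread between these libraries, which may be technical. The labels give no p53 status for either line.

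p53 is a transcription factor that is held at low levels by the ubiquitin ligase MDM2 and accumulates after DNA damage and other stress. It binds paired copies of a decamer motif and raises transcription of genes that stop the cell cycle, repair DNA, rebalance metabolism or start cell death. Wild-type p53 is common in neuroblastoma at diagnosis, where its activity is often limited through MDM2. The list leaves out the direct inhibitors of p53 and CDKN1A, and holds targets from each of these branches.

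The p53 motif was looked for in RefSeq promoter windows (GRCh38.p14), which run from 250 bases before to 50 bases after a transcription start, to show which of the genes carry it close to a start. The motif searched was a pair of p53 consensus decamers with a spacer of 0 or 1 base, both CWWG cores intact and at most 3 mismatches outside the cores. The consensus reads the same on both strands. Windows were found for 22 of the 32 genes, and 6 of these 22 (27.3%) held a match, against 278 of 27305 genes (1.02%) among all RefSeq windows and 0 of 45 genes among the other p53 genes described further on. Since many genes of the list are known as p53 targets through such sites, this share is a description of the list. ASCC3, CMBL, FBXO22, GADD45A, PHLDA3, RRM2B, TNFRSF10A, TNFRSF10B, TP53INP1 and TRIM22 had no window in the table. The matches are given 5′ to 3′ on the strand of the gene, with the cores of the decamers in capitals.
AEN: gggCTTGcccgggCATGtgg
DDB2: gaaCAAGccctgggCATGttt
FAS: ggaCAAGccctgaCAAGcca
GDF15: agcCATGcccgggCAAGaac
RPS27L: ggcCTAGagcagaCAAGccc
SESN1: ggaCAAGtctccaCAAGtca
They lay at chr15:88621306-88621325 (+ strand), chr11:47214979-47214999 (+ strand), chr10:88991309-88991328 (+ strand), chr19:18386186-18386205 (+ strand), chr15:63157527-63157546 (- strand) and chr6:109009018-109009037 (- strand). The DDB2 match had 0 mismatches, those of AEN and FAS had 2, and those of GDF15, RPS27L and SESN1 had 3. Those of DDB2 and GDF15 lay after the transcription start of their window and the other 4 before it. These positions hold for that start alone, since DDB2, FAS and SESN1 also had windows at other starts without a match. The 4 matches before their start also lay inside the annotated bounds of the gene. The 6 genes with a match did not move alike, since SESN1 and RPS27L rose with JSK591 in both lines, GDF15 fell in both, DDB2 rose in NGP, and AEN and FAS rose in CHLA-20. The whole windows of SESN1 (chr6:109008939-109009238, minus strand) and RPS27L (chr15:63157428-63157727, minus strand) are shown because these are the genes with a match that rose in both lines, with the paired decamers in capitals.
SESN1: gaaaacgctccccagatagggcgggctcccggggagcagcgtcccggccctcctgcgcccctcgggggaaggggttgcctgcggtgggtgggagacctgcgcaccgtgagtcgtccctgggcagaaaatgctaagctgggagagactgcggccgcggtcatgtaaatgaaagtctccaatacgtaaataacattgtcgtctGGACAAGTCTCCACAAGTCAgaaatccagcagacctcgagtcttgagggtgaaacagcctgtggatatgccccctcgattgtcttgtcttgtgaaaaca
RPS27L: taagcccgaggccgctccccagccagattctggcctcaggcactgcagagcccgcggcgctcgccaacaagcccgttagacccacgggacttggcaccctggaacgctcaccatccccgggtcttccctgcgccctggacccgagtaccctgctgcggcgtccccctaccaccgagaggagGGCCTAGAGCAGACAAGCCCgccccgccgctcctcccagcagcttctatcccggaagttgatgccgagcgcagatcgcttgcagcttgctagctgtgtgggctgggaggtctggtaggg

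Depth was even, at 33188542 to 34914902 gene counts a library, and the 32 genes together took 0.117% to 0.139% of them. Levels are given in CPM, the count of a gene scaled to the size of its library by TMM. Of 13 sympathoadrenal markers, 12 passed the filter, and their summed level was 2724 to 2725 CPM in NGP JSK591, 2771 to 2929.8 in NGP DMSO, 5264 to 5366 in CHLA-20 JSK591 and 6435 to 6565 in CHLA-20 DMSO. Of the 12 tested markers, 4 rose and 5 fell in NGP (16.8% and 19.4% of all genes), and 5 rose and 7 fell in CHLA-20 (16.9% and 22.4% of all genes). DBH, which makes noradrenaline, had 8 to 12 counts in the 4 NGP libraries and 1553 to 2312 in the 4 CHLA-20 libraries. Not all of these markers were lower in NGP. PHOX2A averaged 740 CPM in NGP DMSO and 563 in CHLA-20 DMSO, and GATA3 averaged 605 and 447. The 8 blood markers summed to less than 1 CPM in every library and CD68 had 0 counts in all. The 8 epithelial markers summed to 2.74 to 2.999 CPM in NGP JSK591, 3.43 to 3.78 in NGP DMSO, 8.06 to 8.08 in CHLA-20 JSK591 and 9.13 to 9.74 in CHLA-20 DMSO. The 11 fibroblast and Schwann cell markers, some of which neuroblastoma lines express, summed to 793 to 831 CPM in NGP JSK591, 698 to 713 in NGP DMSO, 434 to 438 in CHLA-20 JSK591 and 503 to 505 in CHLA-20 DMSO. Most of the NGP DMSO sum was COL1A1, which averaged 547 CPM there and 71.0 in CHLA-20 DMSO. DCN (0.120 CPM in NGP DMSO and 134 in CHLA-20 DMSO) and LUM (3.78 and 158) went the other way. Fewer cells that express a gene and less RNA per cell cannot be told apart in such bulk libraries. The part of these shifts in the changes of the p53 targets was not tested.

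In NGP, JSK591 raised some of these genes by modest amounts. Of the 32 genes, 11 rose, 5 fell, 15 did not pass and TRIM22 had too few counts to be tested. Passing means an adjusted p under 0.05 in edgeR's quasi-likelihood test (Benjamini-Hochberg over 19395 genes), and changes are log2 ratios of JSK591 over DMSO, given as estimate ± SE. The strongest increases were those of SESN1 (0.64 ± 0.07), PHLDA3 (0.56 ± 0.07) and TNFRSF10B (0.50 ± 0.04), and the strongest decrease was that of GDF15 (-0.43 ± 0.06). Among all genes tested in NGP, 16.8% were higher and 19.4% lower, so the 11 of 31 (35.5%) that rose stood above the background and the 5 of 31 (16.1%) that fell stood near it. The median change over the 31 was 0.10, against 0.00 over all genes. With a fold of at least 1.5 also required, 1 gene, SESN1, was higher and 0 were lower, with 5.64% and 2.4% of all genes as background.

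In CHLA-20 a larger number of these genes rose with JSK591, led by EDA2R. Of the 32 genes, 17 rose, 3 fell and 11 did not pass. EDA2R rose most (1.24 ± 0.09), followed by FAS (0.99 ± 0.25), TIGAR (0.95 ± 0.27), SPATA18 (0.70 ± 0.09) and PHLDA3 (0.69 ± 0.07), and GDF15 (-0.55 ± 0.05), FDXR (-0.38 ± 0.07) and CCNG1 (-0.29 ± 0.04) fell. Among all genes tested in CHLA-20, 16.9% were higher and 22.4% lower, beside 17 of 31 (54.8%) and 3 of 31 (9.68%) of these genes. The median change was 0.36, against -0.02 over all genes. With a fold of at least 1.5 also required, 9 were higher and 0 lower, with 3.84% and 5.53% as background. The shares called are drawn as bars. FAS, TNFRSF10A, DRAM1 and CMBL entered the test through their counts in CHLA-20 alone, so the counts for NGP include 4 genes that could hardly pass there.

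**Figure D1:**
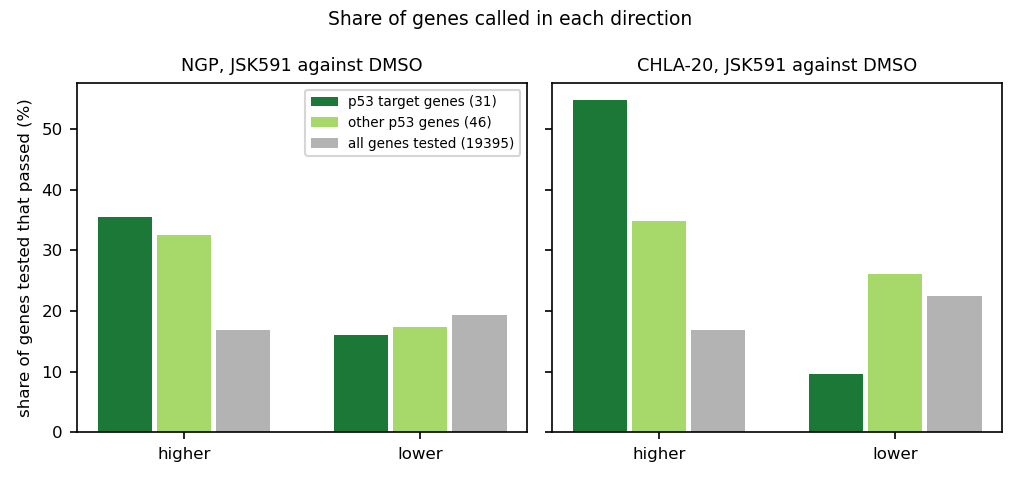
Bars give the share, in percent, of the genes tested that passed as higher or as lower with JSK591, in NGP (left) and CHLA-20 (right), for the p53 target genes, the other p53 genes and all genes tested. The bars of higher p53 target genes reach 35.5% in NGP and 54.8% in CHLA-20, above the bars of all genes, and the bar of lower genes in CHLA-20 lies below that of all genes.

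Of the 8 death receptors and apoptosis genes, 4 rose and 0 fell in NGP (16.8% and 19.4% of all genes), and 6 rose and 0 fell in CHLA-20 (16.9% and 22.4% of all genes). TNFRSF10B, a receptor for the death ligand TRAIL (ENSG00000120889.12, chromosome 8, 23020133 to 23069179, GRCh38), had 111 and 109.7 CPM in NGP JSK591 libraries, against 80.1 and 76.0 CPM in NGP DMSO libraries. Its CHLA-20 values were 117 and 117 CPM with JSK591, against 78.9 and 84.2 CPM with DMSO. The change of TNFRSF10B was 0.50 ± 0.04 in NGP (adjusted p = 1.49e-14) and 0.52 ± 0.04 in CHLA-20 (adjusted p = 1.38e-15). EDA2R, a member of the TNF receptor family that binds ectodysplasin (ENSG00000131080.14, chromosome X, 66595637 to 66639298), had 15.2 and 15.9 CPM in NGP JSK591 libraries, against 12.04 and 11.5 CPM in NGP DMSO libraries. Among CHLA-20 libraries, EDA2R had 17.5 and 16.7 CPM with JSK591, against 7.01 and 7.44 CPM with DMSO. It rose in both lines, by 0.40 ± 0.08 in NGP and 1.24 ± 0.09 in CHLA-20, and the NGP level with DMSO already lay above that of CHLA-20.

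FAS, the receptor of FAS ligand (ENSG00000026103.21, chromosome 10, 88990582 to 89015785), was scarcely counted in NGP, with 2 and 0 counts in NGP JSK591 libraries, against 1 and 3 in NGP DMSO libraries. In CHLA-20 it had 70 and 85 counts in JSK591 libraries, against 38 and 39 in DMSO libraries, and rose by 0.99 ± 0.25 (adjusted p = 0.00106, and 0.0526 without CHLA-20 JSK591 replicate 2). Of the exonic bases of FAS, 8.93% are shared with ACTA2 on the other strand, which had 140 and 110 counts in CHLA-20 JSK591 libraries, against 44 and 31 in CHLA-20 DMSO libraries. Whether reads were counted by strand is not given in the sources used here, and the part of ACTA2 reads in the FAS change was not tested. TNFRSF10A, the other TRAIL receptor of the list, had 0 counts in all 4 NGP libraries. In CHLA-20 it had 29 and 19 counts with JSK591, against 16 and 19 with DMSO, a change of 0.44 ± 0.40 that did not pass (adjusted p = 0.423). TNFRSF10A and TNFRSF10B are close paralogs on chromosome 8, and reads that align to several places were left out of the counts.

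AEN, a nuclease that promotes apoptosis, gave 0.10 ± 0.04 in NGP without passing (adjusted p = 0.0795) and rose by 0.41 ± 0.05 in CHLA-20. SUSD6, a membrane protein with a sushi domain, rose by 0.25 ± 0.07 in NGP and 0.27 ± 0.08 in CHLA-20. TP53INP1, a stress protein that acts with p53 and in autophagy, rose by 0.35 ± 0.07 in NGP and gave 0.09 ± 0.07 in CHLA-20 (adjusted p = 0.363). APAF1, the scaffold of the apoptosome, gave -0.10 ± 0.07 in NGP (adjusted p = 0.327) and was called higher in CHLA-20 at 0.15 ± 0.06 with an adjusted p of 0.0499. That call of APAF1 was lost when low counts were left unfiltered (adjusted p = 0.155), in DESeq2 (0.155), with the GC trend removed (0.144) and without CHLA-20 DMSO replicate 1 (0.0980), CHLA-20 DMSO replicate 2 (0.108) or CHLA-20 JSK591 replicate 1 (0.361). In NGP, APAF1 passed as lower without NGP JSK591 replicate 1 (-0.24, adjusted p = 0.0372), and AEN as higher under total count scaling (adjusted p = 0.0312). The call of SUSD6 was lost in NGP with DESeq2 (0.0568) and without NGP DMSO replicate 2 (0.0669), and in CHLA-20 without CHLA-20 DMSO replicate 1 (0.0643).

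**Figure D2:**
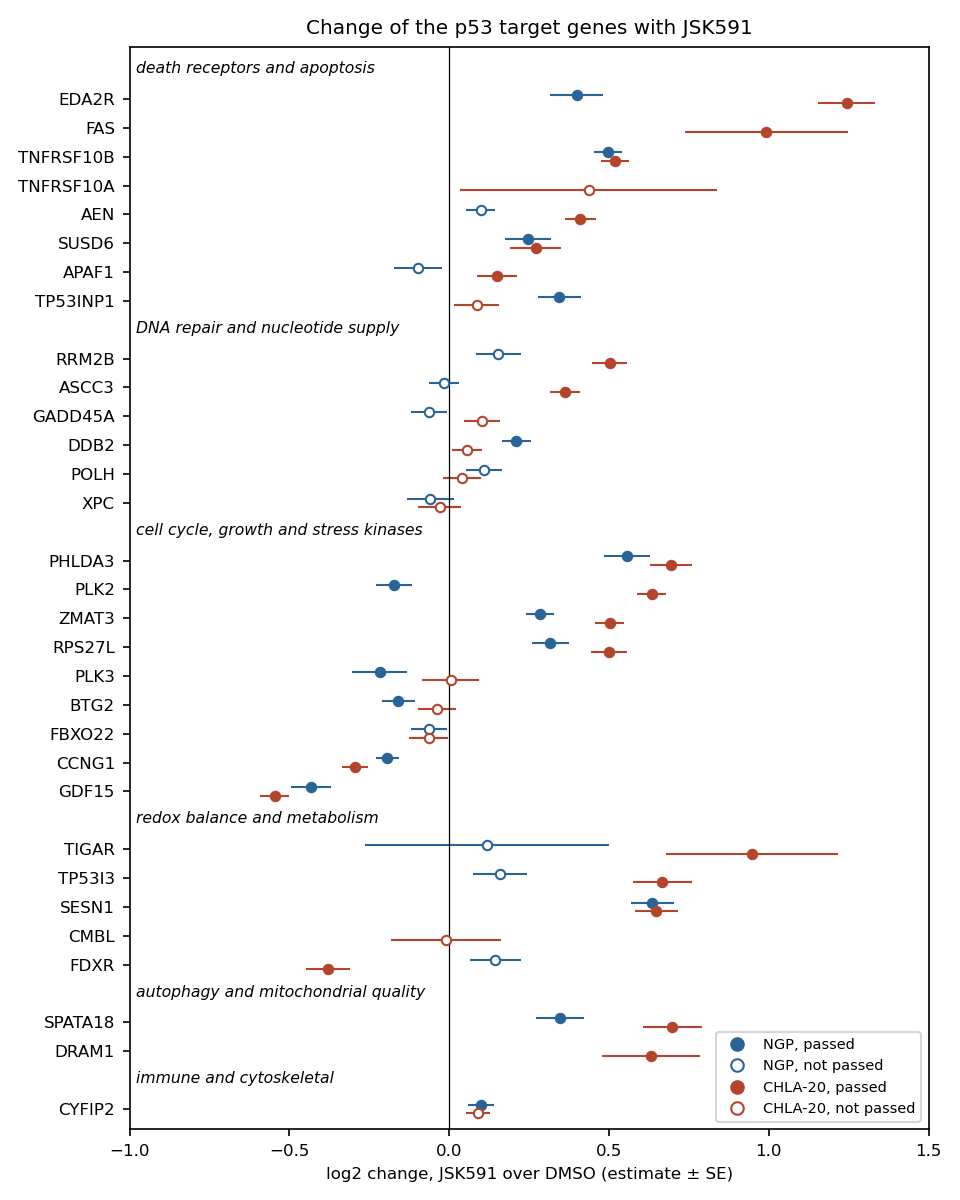
Points give the log2 change, JSK591 over DMSO, with its SE, of 31 p53 target genes grouped by role, in NGP (blue) and CHLA-20 (red), filled where the gene passed. EDA2R in CHLA-20 lies farthest to the right at 1.24, and GDF15 farthest to the left in both lines. PLK2, FDXR, APAF1, GADD45A, ASCC3 and PLK3 lie on opposite sides of 0 in the 2 lines, and of these only PLK2 passed in both. NGP values of FAS, TNFRSF10A, DRAM1 and CMBL are not drawn because their 4 NGP libraries held few or 0 counts.

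Of the 6 genes of DNA repair and nucleotide supply, 1 rose in NGP (16.7%, beside 16.8% of all genes), 2 rose in CHLA-20 (33.3%, beside 16.9%) and 0 fell in either line (19.4% of all genes in NGP and 22.4% in CHLA-20). RRM2B, the p53-inducible subunit of ribonucleotide reductase (ENSG00000048392.11, chromosome 8, 102204502 to 102239118), had 19.7 and 18.6 CPM in NGP JSK591 libraries, against 17.9 and 16.6 CPM in NGP DMSO libraries. The CHLA-20 JSK591 libraries had 49.3 and 51.0 CPM, against 35.3 and 35.5 CPM in CHLA-20 DMSO libraries. Its change of 0.15 ± 0.07 in NGP did not pass (adjusted p = 0.0789, and 0.0441 under total count scaling), while in CHLA-20 it rose by 0.50 ± 0.06 (adjusted p = 2.21e-11). ASCC3, a helicase of the ASCC complex, gave -0.02 ± 0.05 in NGP and rose by 0.36 ± 0.05 in CHLA-20. DDB2, which recognises ultraviolet damage and had the perfect match of the motif, rose by 0.21 ± 0.05 in NGP and gave 0.06 ± 0.05 in CHLA-20 (adjusted p = 0.375).

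The remaining 3 repair genes passed in neither line. XPC, which recognises lesions for nucleotide excision repair, gave -0.06 ± 0.07 in NGP and -0.03 ± 0.07 in CHLA-20. POLH, a polymerase that copies past ultraviolet lesions, gave 0.11 ± 0.06 in NGP, where it passed without NGP JSK591 replicate 2 (0.19, adjusted p = 0.0307), and 0.04 ± 0.06 in CHLA-20. GADD45A, a stress protein of growth arrest, gave -0.06 ± 0.06 in NGP and 0.10 ± 0.06 in CHLA-20, where it passed without CHLA-20 DMSO replicate 2 (0.23, adjusted p = 0.00481). Of the exonic bases of XPC, 30.4% are shared with other genes, so its counts are less certain.

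The genes of cell cycle, growth and stress kinases moved in both directions in each line, with 3 higher and 5 lower of 9 in NGP (16.8% and 19.4% of all genes) and 4 higher and 2 lower in CHLA-20 (16.9% and 22.4% of all genes). The 2 lower in CHLA-20 (22.2%) stood at the background. PHLDA3, which competes with AKT for membrane lipids and so restrains it (ENSG00000174307.6, chromosome 1, 201464383 to 201469237), had 21.4 and 21.96 CPM in NGP JSK591 libraries, against 14.1 and 15.3 CPM in NGP DMSO libraries. Its CHLA-20 values were 30.8 and 31.97 CPM with JSK591, against 19.2 and 19.6 CPM with DMSO. It rose in both lines, by 0.56 ± 0.07 in NGP (adjusted p = 3.88e-09) and 0.69 ± 0.07 in CHLA-20 (adjusted p = 1.22e-13). PHLDA3 shares 19.1% of its exonic bases with AC096677.2 on the same strand, which had 0 counts in all 8 libraries. Ambiguous reads stayed out of the counts, so this 0 does not show how the overlap affected PHLDA3. ZMAT3, an RNA-binding zinc finger protein (ENSG00000172667.10, chromosome 3, 179017223 to 179072279), had 106 and 107 CPM in NGP JSK591 libraries, against 86.8 and 88.4 CPM in NGP DMSO libraries. Among CHLA-20 libraries, ZMAT3 had 89.3 and 85.7 CPM with JSK591, against 60.7 and 62.9 CPM with DMSO. It rose by 0.28 ± 0.04 in NGP and 0.50 ± 0.04 in CHLA-20. RPS27L, a ribosomal protein paralog, rose by 0.32 ± 0.06 in NGP and 0.50 ± 0.06 in CHLA-20. Reads of RPS27L that also match RPS27 or its pseudogenes cannot be assigned with certainty.

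PLK2, a polo-like kinase induced by stress (ENSG00000145632.14, chromosome 5, 58453982 to 58460260), was the only one of the 31 tested genes that passed in both lines with opposite signs. Among all 19395 genes, 1.92% were higher in CHLA-20 and lower in NGP, and 2.38% the reverse. The 1 of 31 (3.23%) thus stood near the background. PLK2 had 29.3 and 30.7 CPM in NGP JSK591 libraries, against 35.1 and 32.5 CPM in NGP DMSO libraries. The CHLA-20 JSK591 libraries had 109 and 107 CPM, against 69.2 and 70.3 CPM in CHLA-20 DMSO libraries. It fell by 0.17 ± 0.06 in NGP (adjusted p = 0.0125, and 0.113 without NGP DMSO replicate 1 or 0.0791 without NGP JSK591 replicate 1) and rose by 0.63 ± 0.05 in CHLA-20 (adjusted p = 2.70e-18). PLK3, a related kinase, was called lower in NGP at -0.22 ± 0.09 (adjusted p = 0.0404) and gave 0.01 ± 0.09 in CHLA-20. The NGP call of PLK3 was lost with DESeq2 (adjusted p = 0.113), under total count scaling (0.0771), with either other filter on low counts (0.102 and 0.0534) and without NGP DMSO replicate 2 (0.265), NGP JSK591 replicate 1 (0.149) or NGP JSK591 replicate 2 (0.0727). BTG2, an antiproliferative protein, was called lower in NGP at -0.16 ± 0.05 (adjusted p = 0.0116, with 0.0691 under no filter on low counts, 0.0847 without NGP DMSO replicate 2 and 0.0967 without NGP JSK591 replicate 2) and gave -0.04 ± 0.06 in CHLA-20.

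GDF15, a cytokine secreted under stress (ENSG00000130513.6, chromosome 19, 18374731 to 18389176), had 20.1 and 21.1 CPM in NGP JSK591 libraries, against 27.9 and 27.6 CPM in NGP DMSO libraries. Its CHLA-20 values were 76.4 and 69.9 CPM with JSK591, against 107 and 107 CPM with DMSO. It fell in both lines, by 0.43 ± 0.06 in NGP (adjusted p = 5.92e-08) and 0.55 ± 0.05 in CHLA-20 (adjusted p = 1.87e-15). CCNG1, an atypical cyclin, had 278 and 282 CPM in NGP JSK591 libraries, against 324 and 316 CPM in NGP DMSO libraries. Among CHLA-20 libraries, CCNG1 had 106 and 110.0 CPM with JSK591, against 134 and 131 CPM with DMSO. It fell by 0.19 ± 0.04 in NGP and 0.29 ± 0.04 in CHLA-20. FBXO22, a ubiquitin ligase subunit, gave -0.06 ± 0.06 in NGP and -0.06 ± 0.06 in CHLA-20 and passed in neither.

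**Figure D3:**
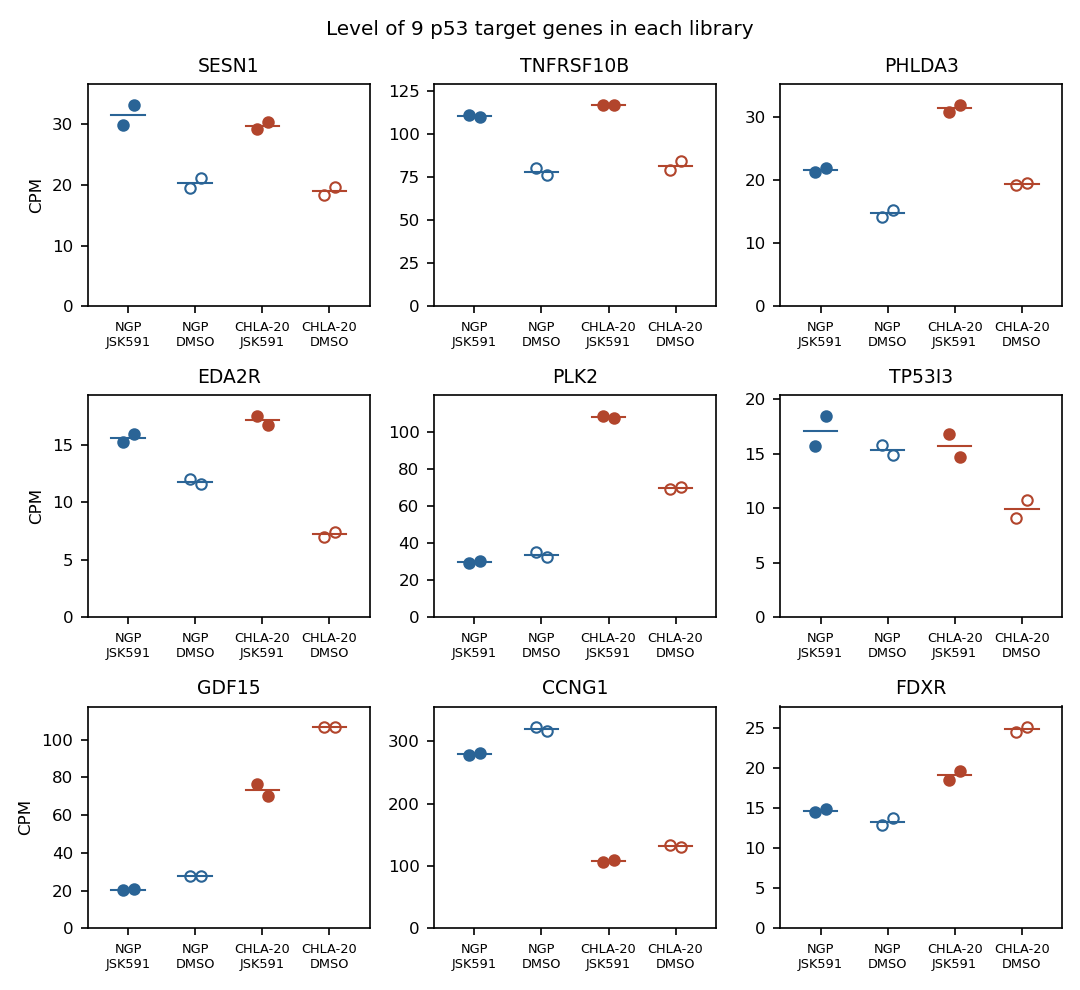
Each point is the level of a gene in a library, in CPM, with the mean of 2 libraries as a bar, filled for JSK591 and open for DMSO, NGP in blue and CHLA-20 in red. SESN1, TNFRSF10B, PHLDA3 and EDA2R stand higher with JSK591 in both lines, GDF15 and CCNG1 lower in both, and PLK2 is higher with JSK591 in CHLA-20 and lower in NGP.

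In redox balance and metabolism, 1 of 5 genes rose and 0 fell in NGP (16.8% and 19.4% of all genes), and 3 rose and 1 fell in CHLA-20 (16.9% and 22.4% of all genes). The 1 higher in NGP and the 1 lower in CHLA-20 (20% each) stood near the background. SESN1, a sestrin that limits mTOR signalling and oxidative damage (ENSG00000080546.13, chromosome 6, 108986437 to 109094819), had 29.8 and 33.3 CPM in NGP JSK591 libraries, against 19.5 and 21.1 CPM in NGP DMSO libraries. The CHLA-20 JSK591 libraries had 29.3 and 30.4 CPM, against 18.4 and 19.7 CPM in CHLA-20 DMSO libraries. It rose in both lines, by 0.64 ± 0.07 in NGP (adjusted p = 6.37e-12) and 0.65 ± 0.07 in CHLA-20 (adjusted p = 3.65e-12). TP53I3, a quinone oxidoreductase linked to cell death (ENSG00000115129.13, chromosome 2, 24077433 to 24085861), had 15.7 and 18.5 CPM in NGP JSK591 libraries, against 15.8 and 14.9 CPM in NGP DMSO libraries. Its CHLA-20 values were 16.8 and 14.7 CPM with JSK591, against 9.08 and 10.8 CPM with DMSO. The NGP libraries overlapped and the change of 0.16 ± 0.08 did not pass (adjusted p = 0.136, and 0.0465 at a change of 0.25 without NGP JSK591 replicate 1), while in CHLA-20 it rose by 0.67 ± 0.09 (adjusted p = 1.15e-08).

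FDXR, the mitochondrial ferredoxin reductase (ENSG00000161513.11, chromosome 17, 74862497 to 74873031), had 14.5 and 14.8 CPM in NGP JSK591 libraries, against 12.8 and 13.7 CPM in NGP DMSO libraries. Among CHLA-20 libraries, FDXR had 18.5 and 19.7 CPM with JSK591, against 24.5 and 25.1 CPM with DMSO. It gave 0.14 ± 0.08 in NGP without passing (adjusted p = 0.156) and fell by 0.38 ± 0.07 in CHLA-20 (adjusted p = 7.87e-06). TIGAR, a phosphatase that restrains glycolysis (ENSG00000078237.6, chromosome 12, 4307763 to 4354593), had 17 and 22 counts in NGP JSK591 libraries, against 21 and 14 in NGP DMSO libraries. In CHLA-20 it had 71 and 56 counts in JSK591 libraries, against 40 and 25 in DMSO libraries. It gave 0.12 ± 0.38 in NGP and rose by 0.95 ± 0.27 in CHLA-20 (adjusted p = 0.00306, and 0.0929 without CHLA-20 DMSO replicate 2 or 0.0715 without CHLA-20 JSK591 replicate 1). Of its exonic bases, 45.6% are shared with the genes AC008012.1 and AC006122.1, so its counts are less certain. CMBL, a hydrolase, had 0 and 1 counts in NGP JSK591 libraries, against 3 and 2 in NGP DMSO libraries, too few to measure a change, and gave -0.01 ± 0.17 in CHLA-20 (adjusted p = 0.985).

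Of the autophagy and mitochondrial genes, SPATA18, which takes part in mitochondrial quality control (ENSG00000163071.10, chromosome 4, 52051331 to 52097292), had 21.97 and 21.0 CPM in NGP JSK591 libraries, against 17.2 and 16.6 CPM in NGP DMSO libraries. The CHLA-20 JSK591 libraries had 11.8 and 13.0 CPM, against 7.49 and 7.76 CPM in CHLA-20 DMSO libraries. It rose by 0.35 ± 0.07 in NGP and 0.70 ± 0.09 in CHLA-20. DRAM1, a lysosomal membrane protein of autophagy (ENSG00000136048.13, chromosome 12, 101877351 to 102012130), had 3 and 2 counts in NGP JSK591 libraries, against 0 and 5 in NGP DMSO libraries. In CHLA-20 it had 5.77 and 5.65 CPM in CHLA-20 JSK591 libraries, against 3.67 and 3.70 CPM in CHLA-20 DMSO libraries, and it rose there by 0.63 ± 0.15 (adjusted p = 0.000556).

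CYFIP2, a component of the WAVE complex that drives actin branching, lay at the threshold in both lines. It gave 0.10 ± 0.04 in NGP (adjusted p = 0.0476) and 0.09 ± 0.04 in CHLA-20 (adjusted p = 0.0566). Its NGP call was lost with DESeq2 (adjusted p = 0.135), with the replicate block (0.0525) and without each of the 8 libraries in turn (over all 14 alternatives that lost it, 0.0525 to 0.305). In CHLA-20 it passed under 9 alternatives, among them total count scaling (0.0281), the 4 CHLA-20 libraries alone (0.0100) and leaving out NGP DMSO replicate 1, NGP DMSO replicate 2 or NGP JSK591 replicate 1 (over all of them, 0.0089 to 0.0354). TRIM22, an antiviral TRIM protein, had 8 and 8 counts in NGP JSK591 libraries, against 2 and 3 in NGP DMSO libraries, 3.12-fold higher with a 95% counting interval of 1.09 to 10.9. In CHLA-20 it had 4 and 11 counts with JSK591, against 0 and 0 with DMSO. That was 4.95-fold higher with the 0 set to 3 counts over the group and the 15 counts taken as exact. TRIM22 fell under the filter on low counts, and with no filter its adjusted p was 0.244 in NGP and 0.00832 in CHLA-20 (edgeR over 41357 genes). Such intervals cover counting error only, and such floors cover only that of the 0.

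The difference of the JSK591 effects, NGP minus CHLA-20, was tested for each gene in the same model. Of 31 genes, 9 had a lower and 2 a higher change in NGP than in CHLA-20, against 12.5% lower and 15.2% higher among all genes tested. With a difference of at least 1.5-fold also required, EDA2R and PLK2 remained lower and 0 were higher, beside 2.16% lower and 6.07% higher among all genes. EDA2R changed by 0.40 in NGP and 1.24 in CHLA-20, a difference of -0.85 ± 0.12 (adjusted p = 1.51e-07). PLK2 differed by -0.81 ± 0.07 (adjusted p = 1.15e-13), TP53I3 by -0.51 ± 0.12 (0.00108), ASCC3 by -0.38 ± 0.07 (7.02e-06), RRM2B by -0.35 ± 0.09 (0.00179) and AEN by -0.31 ± 0.07 (0.000178). SPATA18, APAF1 and ZMAT3 differed by -0.35 ± 0.12, -0.25 ± 0.10 and -0.22 ± 0.06. The call of SPATA18 was lost under no filter on low counts (adjusted p = 0.0611), with DESeq2 (0.0586) and without CHLA-20 DMSO replicate 1 (0.0768), CHLA-20 JSK591 replicate 2 (0.130) or NGP JSK591 replicate 2 (0.0708). That of APAF1 was lost under 9 alternatives (0.0524 to 0.398), among them leaving out CHLA-20 DMSO replicate 1, CHLA-20 JSK591 replicate 1, NGP DMSO replicate 1 or NGP JSK591 replicate 2. That of ZMAT3 was lost with the GC trend removed (0.0521). FDXR (0.52 ± 0.11, adjusted p = 8.12e-05) and TP53INP1 (0.26 ± 0.10, adjusted p = 0.0385) had the higher change in NGP, and the call of TP53INP1 was lost under 10 alternatives (0.063 to 0.293), among them leaving out any library other than CHLA-20 JSK591 replicate 2.

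For other genes the difference did not pass, and its 95% interval shows how large it could be. It was -0.01 (-0.20 to 0.18) for SESN1, -0.02 (-0.14 to 0.10) for TNFRSF10B, -0.02 (-0.24 to 0.19) for SUSD6 and -0.14 (-0.33 to 0.06) for PHLDA3. It was 0.11 (-0.04 to 0.27) for GDF15 and 0.10 (-0.01 to 0.21) for CCNG1. With the GC trend removed, the differences of PHLDA3 (-0.31), PLK3 (-0.42), GADD45A (-0.22) and CCNG1 (0.18) passed (adjusted p = 0.00844, 0.00602, 0.0207 and 0.00270). That of GADD45A also passed without CHLA-20 DMSO replicate 2 (0.00360). The difference of RPS27L was -0.18 (-0.34 to -0.02), and it passed with the DESeq2 size factors (0.0459) and without CHLA-20 DMSO replicate 1 (0.0414), NGP DMSO replicate 1 (0.0493) or NGP JSK591 replicate 2 (0.0187). The difference of DDB2 was 0.15 (0.02 to 0.29), and it passed among genes with at least 10 counts in every library (0.16, adjusted p = 0.0474). For FAS, DRAM1, TNFRSF10A and CMBL the NGP counts were too few to measure a difference.

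Across the 27 genes with at least 10 counts in every library, the changes in the 2 lines had a Pearson correlation of 0.627 and a Spearman correlation of 0.639. Over all 14520 genes with such counts the values were 0.314 and 0.320. With less counted genes included, the values were lower, at 0.270 and 0.488 over the 31 tested p53 targets. Over all 19395 genes tested they were 0.125 and 0.235. These are descriptions across genes, which are not independent replicates, and the 2 changes share no library. EDA2R, PHLDA3, RPS27L, SESN1, SPATA18, SUSD6, TNFRSF10B and ZMAT3 rose in both lines (8 of 31), and CCNG1 and GDF15 fell in both (2 of 31). Among all 19395 genes, 1109 (5.72%) were higher in both and 1741 (8.98%) lower in both.

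**Figure D4:**
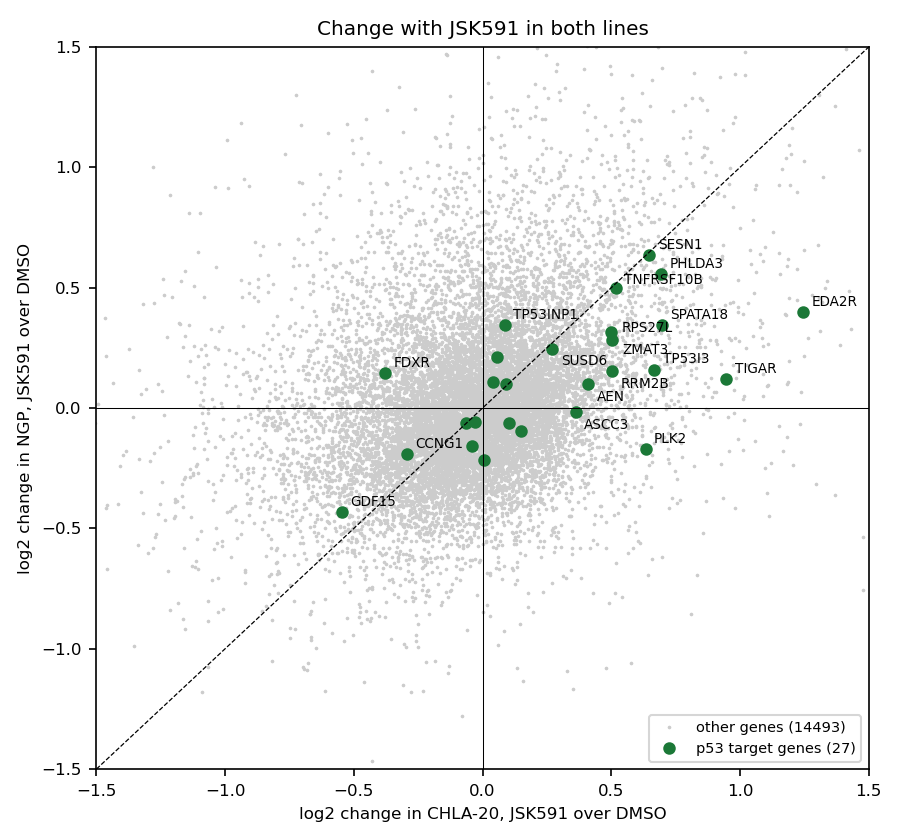
Each point is a gene with at least 10 counts in every library, placed by its log2 change with JSK591 in CHLA-20 (horizontal) and NGP (vertical), with 27 p53 target genes in green and the other genes in grey, and the dashed line marks equal change. SESN1 and TNFRSF10B lie on the line, EDA2R, TIGAR, TP53I3 and PLK2 lie below it, and FDXR lies above it. Other genes beyond 1.5 in either direction fall outside the axes.

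Without inhibitor, the lines stood far apart in some of these genes. Comparing NGP DMSO with CHLA-20 DMSO, 13 of 31 genes were higher and 13 lower in NGP, against 36.6% higher and 38.9% lower among all genes tested. With a fold of at least 1.5 also required, 6 were higher and 11 lower, beside 23% and 27.2% of all genes. FAS, TNFRSF10A, DRAM1 and CMBL passed the filter on low counts only through CHLA-20, where they are high, so these 4 had to come out lower in NGP and both counts of lower genes include them. The widest gaps were in genes that NGP hardly expressed. TNFRSF10A had 0 counts in NGP DMSO and 35 in CHLA-20 DMSO. That was 11.6-fold lower in NGP with the 0 set to 3 counts over the group and the 35 counts taken as exact. DRAM1 had 5 counts in NGP DMSO and 249 in CHLA-20 DMSO, 49.3-fold lower in NGP (20.9 to 153). CMBL had 5 counts in NGP DMSO and 232 in CHLA-20 DMSO, 46.0-fold lower in NGP (19.4 to 143). FAS had 4 counts in NGP DMSO and 77 in CHLA-20 DMSO, 19.1-fold lower in NGP (7.15 to 71.8). The ranges in brackets are 95% counting intervals.

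Among well-counted genes, GDF15 averaged 27.8 ± 0.190 CPM in NGP DMSO and 107 ± 0.227 CPM in CHLA-20 DMSO (SD, n = 2 each), a log2 difference of -1.94 ± 0.05. PLK2 (-1.05 ± 0.05), RRM2B (-1.04 ± 0.06) and FDXR (-0.90 ± 0.07) were also lower in NGP. CCNG1 averaged 320.1 ± 5.14 CPM in NGP DMSO and 133 ± 2.34 CPM in CHLA-20 DMSO (1.27 ± 0.04). SPATA18 (1.15 ± 0.09), BTG2 (0.92 ± 0.06), AEN (0.82 ± 0.05) and EDA2R (0.71 ± 0.09) were also higher in NGP. TNFRSF10B (-0.06 ± 0.04), DDB2 (-0.00 ± 0.05), RPS27L (0.00 ± 0.06) and SESN1 (0.09 ± 0.07) did not pass. PHLDA3 was lower in NGP (-0.40 ± 0.07), a call lost with the GC trend removed (adjusted p = 0.156). TP53INP1 gave 0.14 ± 0.07 without passing, and passed with the DESeq2 size factors (adjusted p = 0.0351), under total count scaling (0.0267) and without NGP DMSO replicate 2 (0.0162), NGP JSK591 replicate 1 (0.0209) or NGP JSK591 replicate 2 (0.0495). SESN1 passed as higher in NGP without NGP DMSO replicate 1 (0.0345).

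The other genes higher in NGP were TP53I3, ZMAT3, SUSD6, FBXO22, POLH, PLK3, GADD45A and ASCC3, with log2 differences of 0.11 to 0.63. The other genes lower in NGP were TIGAR, APAF1, CYFIP2 and XPC, with -0.87 to -0.42. The difference of ASCC3 was 0.01 with the GC trend removed (adjusted p = 0.786), and its call was also lost with no filter on low counts (0.0881) and without CHLA-20 DMSO replicate 2 (0.335). Calls were lost for GADD45A without CHLA-20 DMSO replicate 1 (adjusted p = 0.233) and for TIGAR in DESeq2 (0.0819). TIGAR also failed to pass when NGP DMSO replicate 2 (0.200) or CHLA-20 DMSO replicate 1 (0.302) was left out. Per length of exon (RPKM, here CPM per kilobase of all annotated exons), CCNG1 stood at 103 in NGP DMSO and 42.8 in CHLA-20 DMSO, GDF15 at 13.3 in NGP DMSO and 51.2 in CHLA-20 DMSO, and GADD45A at 21.3 in NGP DMSO and 18.6 in CHLA-20 DMSO. The members spanned levels from TRIM22, with a mean of 0.0220 RPKM over all 8 libraries, to CCNG1, with 67.9.

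**Figure D5:**
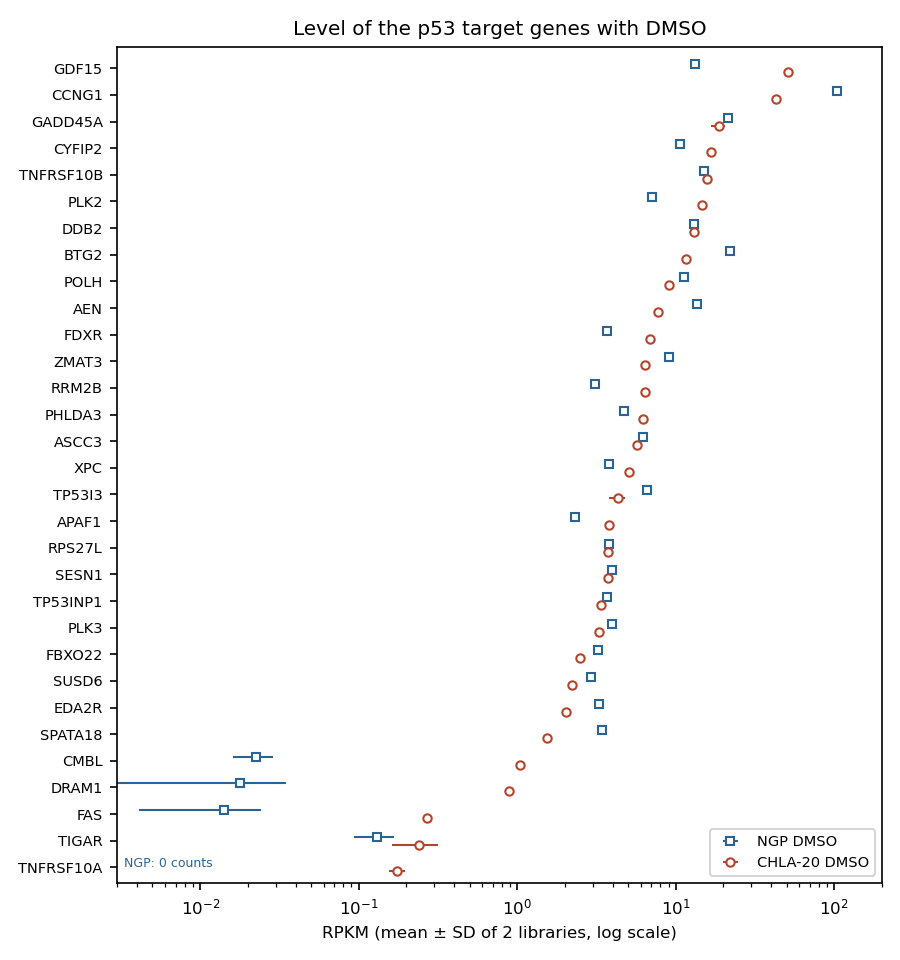
Points give the mean level with SD of 2 libraries, in RPKM on a log axis, of 31 p53 target genes in NGP DMSO (squares) and CHLA-20 DMSO (circles), ordered by the CHLA-20 level. CCNG1 in NGP stands highest at 103, and DRAM1, CMBL, FAS and TNFRSF10A stand far lower in NGP than in CHLA-20. The SD of DRAM1 in NGP exceeds its mean and is cut off at the axis.

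Other genes of the p53 pathway, a list of 50 with its regulators, CDKN1A and further targets, moved in both directions. Of 46 tested, 15 rose and 8 fell in NGP, and 16 rose and 12 fell in CHLA-20. These were 32.6% higher and 17.4% lower in NGP, beside 16.8% and 19.4% of all genes, and 34.8% higher and 26.1% lower in CHLA-20, beside 16.9% and 22.4%. The median change was 0.02 in NGP and 0.02 in CHLA-20, near that of all genes. MDM2 rose by 0.32 ± 0.04 in NGP and 0.68 ± 0.05 in CHLA-20, and with DMSO its level in NGP was 3.53 higher on the log2 scale than in CHLA-20. CDKN1A, the inhibitor of cyclin-dependent kinases, rose by 0.68 ± 0.04 in NGP and 0.67 ± 0.04 in CHLA-20, a difference of 0.01 (-0.09 to 0.12). PPM1D, a phosphatase that restrains p53, fell by 0.30 ± 0.04 in NGP and rose by 0.20 ± 0.04 in CHLA-20. MDM4, which inhibits p53, gave 0.04 ± 0.04 in NGP (adjusted p = 0.446) and rose by 0.18 ± 0.04 in CHLA-20.

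Of the further targets, the cytokine LIF rose in both lines, by 1.18 ± 0.17 in NGP and 0.97 ± 0.18 in CHLA-20. The stress transcription factor ATF3 fell by 0.63 ± 0.07 in NGP and 0.69 ± 0.07 in CHLA-20, and DDIT4, an inhibitor of mTOR signalling, fell by 0.46 ± 0.06 in NGP and 1.20 ± 0.07 in CHLA-20. BBC3, which promotes cell death, gave -0.07 ± 0.08 in NGP without passing and fell by 0.80 ± 0.08 in CHLA-20. SERTAD1 gave -0.47 ± 0.30 in NGP without passing and fell by 0.85 ± 0.25 in CHLA-20, and the ion cotransporter SLC12A4 rose by 0.69 ± 0.16 in NGP and gave -0.13 ± 0.06 in CHLA-20.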

How the data were processed

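Each of the 8 libraries has a deposited file of raw counts for every gene. Of the authors' tools, STAR, HTSeq and DESeq2 are named, with the build GRCh38 (hg38), per the submitters' processing notes. Versions, annotation and strand setting are not given in the sources used here. Reads outside genes (5.15% to 6.86%), ambiguous reads (6.77% to 7.18%) and reads with several alignments (19.2% to 22.002%) stayed out of the gene counts. These shares are of the total of each file, with the reads left out included. All 58721 gene identifiers were found in GENCODE release 29, which gave symbols, coordinates and exons.

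The counts were fitted with edgeR 4.0.16 in R 4.3.3: filterByExpr over the 4 groups left 19395 genes, libraries were scaled by TMM, and a quasi-likelihood model of the 4 groups was fitted to all 8 libraries with no block (4 residual degrees of freedom, biological coefficient of variation 2.76%). The SE of a log2 change comes from its F value. Adjusted p-values are Benjamini-Hochberg over all genes tested, with 0.05 as the threshold. The GC trend was taken from the longest transcript of each gene. DESeq2 1.42.0 was an alternative. Values in every library are given for genes that passed with a log2 change, or a difference between lines, of at least 0.5 in size. CCNG1, CMBL, TNFRSF10A and TRIM22 were added to these after their values were seen. The other p53 genes named are MDM2, MDM4, PPM1D, CDKN1A and the 4 largest changes that passed in each line. Some results that this rule covers are not reported here. The genes and lists were chosen with earlier results of these data known. Deviations from the group means were not shared by libraries of equal replicate number (correlations -0.0269 to 0.0122), so they were not paired. Replicate counts differed beyond sampling noise (chi-square over its degrees of freedom, 2.05 to 3.11). A count of 0 allows up to 3 counts, at most 0.0904 CPM.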

Additional observations from a re-analysis of the deposited data

Results flagged for a closer look

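The change with JSK591 differed between NGP and CHLA-20 for 11 of the 31 p53 targets tested. The difference itself was tested (edgeR's interaction contrast, NGP minus CHLA-20, log2). Of the 31, 9 had a lower and 2 a higher change in NGP, beside 12.5% and 15.2% of all genes tested. The share with a lower change thus stood above the background, and the share with a higher change stood below it. The change was smaller or of the opposite sign in NGP for EDA2R (-0.85, adjusted p = 1.51e-07), PLK2 (-0.81, adjusted p = 1.15e-13), TP53I3 (-0.51, adjusted p = 0.00108), ASCC3 (-0.38, adjusted p = 7.02e-06), SPATA18 (-0.35, adjusted p = 0.0204), RRM2B (-0.35, adjusted p = 0.00179), AEN (-0.31, adjusted p = 0.000178), APAF1 (-0.25, adjusted p = 0.0485) and ZMAT3 (-0.22, adjusted p = 0.00514). It lay above that of CHLA-20 for FDXR (0.52, adjusted p = 8.12e-05) and TP53INP1 (0.26, adjusted p = 0.0385). Under the alternatives, the call was lost for TP53INP1 under 10, for APAF1 under 9, for SPATA18 under 5 and for ZMAT3 under 1, the removal of the GC trend. Of these 11, PLK2 passed in both lines with opposite signs. Among all genes tested, 1.92% were higher in CHLA-20 and lower in NGP, and 2.38% the reverse.

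Among the other p53 genes named, the change lay below that of CHLA-20 in NGP for PPM1D (-0.51, adjusted p = 1.08e-09) and MDM2 (-0.36, adjusted p = 2.62e-06). It lay above it for SLC12A4 (0.82, adjusted p = 0.000135), DDIT4 (0.74, adjusted p = 1.48e-08) and BBC3 (0.72, adjusted p = 1.21e-06). Among all genes tested, 12.5% had a lower and 15.2% a higher change in NGP.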

How the results depend on the processing

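Over the alternatives, no called value of a gene reversed its sign. Of the values of single genes under an alternative, 483 of 518 kept their side of the threshold in NGP and 501 of 522 in CHLA-20. For the difference between lines 450 of 489 did so, and 476 of 492 for NGP DMSO against CHLA-20 DMSO. These totals include values that passed in neither fit and changed sign. There were 12 such values in NGP, 13 in CHLA-20, 31 for the difference and 16 with DMSO. The cause of the changed calls was not tested.

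With a fold of at least 1.5 also required, the p53 targets had 1 higher and 0 lower in NGP (all genes 1093 and 466), 9 and 0 in CHLA-20 (all genes 744 and 1073), 0 and 2 for the difference (all genes 1178 and 419), and 6 higher with DMSO (all genes 4452). With no filter on low counts, 3 p53 targets were lower in NGP and 1 had the higher difference, as did 1 with DESeq2 and 1 with DESeq2 size factors. DESeq2 called 2083 genes higher in NGP and 1850 with the higher difference. Leaving out 1 library at a time gave the p53 targets a median change of 0.07 to 0.11 in NGP, against -0.02 to 0.00 over all genes. In CHLA-20 the medians were 0.32 to 0.42, against -0.03 to 0.01 over all genes. For the difference they were -0.27 to -0.18, against -0.03 to 0.03 over all genes.

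With the replicate number as a block, the p53 targets had 10 higher and 5 lower in NGP, 17 and 3 in CHLA-20, 2 and 9 for the difference, and 13 and 13 with DMSO. The block ended the call of CYFIP2 in NGP (adjusted p = 0.0525) and changed no other call. Counts of all genes called with the block, with no filter and with the DESeq2 size factors are not given here. The counts of p53 targets under these settings therefore have no background beside them. With 2 libraries a group and few counts, changes of FAS, TNFRSF10A, DRAM1, CMBL, TIGAR and TRIM22 are limited by depth.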
